A study of Mus musculus with 9 samples.

Results

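The integrin subunit genes Itgam, Itgal, Itgb2, Itga4, Itga5, Itga6, Itgav, Itgb1, Itgb5 and Itgb7 were followed in microglial BV2 cells exposed to silica-coated magnetic nanoparticles. The rule that chose them is a list of gene names, and they are 10 of the 26 integrin subunits in a table of 40993 genes. BV2 is a line of mouse microglia that was immortalized to grow in culture. The nanoparticles, MNPs@SiO2(RITC), have a cobalt ferrite core in a shell of silica to which the dye rhodamine B isothiocyanate is bound. Of the 9 RNA-seq libraries, 3 came from non-treated control cells, 3 from cells exposed to a low dose of 10 µg/ml for 12 h (labelled 0.01 µg/µl) and 3 from cells exposed to a high dose of 100 µg/ml for 12 h (labelled 0.1 µg/µl). All groups are the same cell line, no vehicle or uncoated particle is among them, and the labels do not say whether the libraries of a group came from separate cultures, so the p-values measure the spread between these libraries, which may be technical.

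Integrins are cell surface receptors made of an alpha and a beta subunit that bind matrix proteins, complement fragments or adhesion molecules on other cells, and that pass force and signals to the actin cytoskeleton. Leukocytes are marked by the Itgb2 subunit, which pairs with Itgam in complement receptor 3 (Mac-1), a phagocytic receptor used as a marker of microglia, and with Itgal in the lymphocyte function-associated antigen LFA-1. The Itgb1 subunit pairs with Itga4, Itga5 and Itga6 in receptors for VCAM1 and fibronectin, for fibronectin, and for laminins, Itgb7 is the other partner of Itga4, and Itgav pairs with Itgb5 in a vitronectin receptor that phagocytes use to take up dead cells.

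The values are FPKM, fragments divided by the length of the transcript and by the number of mapped fragments, so levels of different genes can be compared per length. In 9 of the 10 genes the mean over the 9 libraries reached the 1 FPKM required for a test, and Itgal, at 0.824 FPKM, did not. FPKM does not give the depth of a library, and steps between the low values put it at about 13.2 to 16.5 M (mega) fragments. High dose replicate 1 stood apart from the other libraries. Its genes deviated from their 9-library means by transcript length, with a Spearman rho of -0.52 across 11076 genes (genes are not independent replicates) against -0.19 to 0.35 in the other 8 libraries, and the median deviation in log2 units was 0.18 in the shortest 20% of transcripts, up to 1610 nt, and -0.20 in the longest 20%, from 5016 nt. High dose replicates 2 and 3 deviated the other way, with rho of 0.35 and 0.25 and medians of -0.09 and -0.07 in the shortest 20%. Fits without high dose replicate 1 therefore still carry a deviation by length. Of the 10 integrin genes, Itga4 (9767 nt), Itgav (7054 nt) and Itgal (5222 nt) belong to the longest 20% and none to the shortest. Other genes named below do belong to the shortest 20%, among them Spp1 (1507 nt), Lgals3 (1419 nt), Lgals1 (800 nt) and Cd81 (1607 nt). Flna (8456 nt) and C3 (5136 nt) are among those in the longest 20%. Of 13 microglia and macrophage markers 11 had a mean of at least 1 FPKM, led by Cd68 at 413 FPKM, while Cx3cr1 (0.0368 FPKM) and P2ry12 (0.0934 FPKM) were near 0. Their sum was 1650 to 1880 FPKM in control libraries, 1630 to 1730 FPKM at 10 µg/ml and 1469 to 1710 FPKM at 100 µg/ml, and its part in the results below was not tested. Markers of astrocytes, neurons, oligodendrocytes, fibroblasts and lymphocytes all had means under 1 FPKM, with the 5 lymphocyte markers at 0 in every library, and of 4 endothelial markers only Kdr (67.9 FPKM) was above it.

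**Figure D1:**
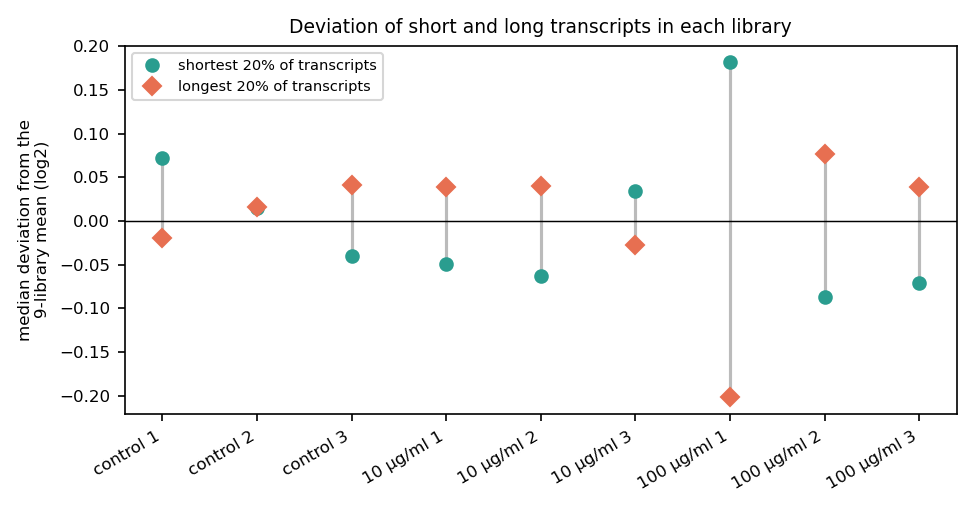
Median deviation from the 9-library mean on log2(FPKM + 1) (y axis, log2 units) of the shortest 20% (circles) and the longest 20% (diamonds) of transcripts in each of the 9 libraries (x axis). High dose replicate 1 has the widest gap, with 0.18 for short and -0.20 for long transcripts.

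Non-treated BV2 cells carried the subunits at levels from about 1 to over 100 FPKM. Itgb1 was the most abundant, at 135.0 ± 5.50 FPKM (SD, n = 3), followed by Itgam at 61.9 ± 3.48, Itgb2 at 48.5 ± 2.06 and Itga4 at 45.1 ± 0.563 FPKM. Itga6 at 23.0 ± 0.339, Itga5 at 21.1 ± 1.12, Itgb5 at 19.3 ± 0.606 and Itgav at 15.4 ± 1.28 FPKM formed the middle of the order. The lowest were Itgb7, at 3.28 ± 0.306 FPKM, and Itgal, at 1.12 ± 0.173 FPKM. All neighbours in this order were apart in the 3 control libraries and also at 10 µg/ml, where the order was the same. Over all 9 libraries, the mean of Itgb1 lay above 94.6% of the genes tested, that of Itgam above 84.1% and that of Itgb7 above 15.0%. The other 16 integrin subunits were scarce. Only Itgax, the alpha subunit of complement receptor 4 (1.93 to 2.28 FPKM over the 9 libraries), and the laminin-binding Itga7 (1.68 to 2.26 FPKM) reached a mean of 1 FPKM, Itga10 had 0.670 to 1.16 FPKM, the other 13 had means of at most 0.278 FPKM, and 4 of these (Itga1, Itga2, Itga3 and Itgb6) were listed at 0 in every library. Itgb3, the other well-known partner of Itgav, had at most 0.0654 FPKM in any library.

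**Figure D2:**
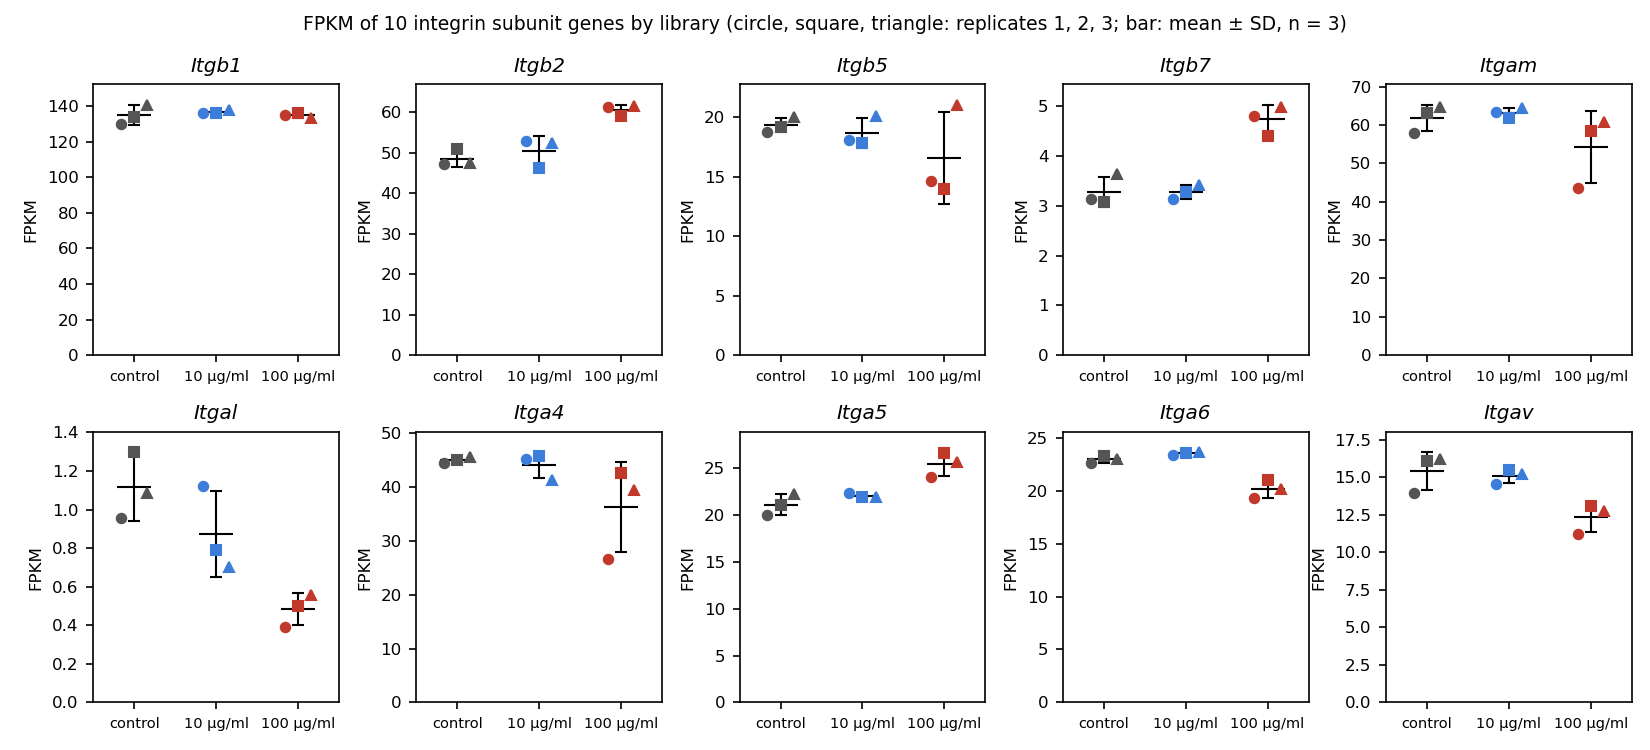
FPKM (y axis, from 0) of the 10 integrin subunit genes in non-treated control cells and in cells treated at 10 and 100 µg/ml (x axis). Circles, squares and triangles are replicates 1, 2 and 3 and bars give the mean ± SD of 3 libraries. Itgb2, Itga5 and Itgb7 at 100 µg/ml lie above all control libraries, and Itgal, Itga4, Itga6 and Itgav below them.

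RefSeq promoters of GRCm38.p6, 300 bases from 250 before to 50 after the start of the gene, were matched for 7 of the 10 genes, and Itgal, Itgb2 and Itga6 were not matched. Those of Itgb7 and Itga5, whose libraries at 100 µg/ml lay above control, of Itgav, whose libraries lay below, and of Itgam, the myeloid marker, are printed to show the start region of subunits that went different ways. They are in lower case, with GAGGAA or its reverse complement TTCCTC, the core bound by the myeloid factor PU.1 and its ETS relatives, in capitals.
Itgb7, chr15:102231886-102232185, minus strand: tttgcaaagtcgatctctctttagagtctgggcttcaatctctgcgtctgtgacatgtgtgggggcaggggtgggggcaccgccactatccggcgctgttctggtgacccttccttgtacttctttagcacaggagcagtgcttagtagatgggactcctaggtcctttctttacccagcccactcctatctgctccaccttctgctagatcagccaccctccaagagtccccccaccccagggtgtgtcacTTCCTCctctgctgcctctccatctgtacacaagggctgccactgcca
Itga5, chr15:103366742-103367041, minus strand: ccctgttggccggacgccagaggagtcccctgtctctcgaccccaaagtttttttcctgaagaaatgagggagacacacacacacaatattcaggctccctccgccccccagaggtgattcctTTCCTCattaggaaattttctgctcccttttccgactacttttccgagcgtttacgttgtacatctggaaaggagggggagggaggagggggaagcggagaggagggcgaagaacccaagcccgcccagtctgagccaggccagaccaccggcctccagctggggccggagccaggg
Itgav, chr2:83724147-83724446, plus strand: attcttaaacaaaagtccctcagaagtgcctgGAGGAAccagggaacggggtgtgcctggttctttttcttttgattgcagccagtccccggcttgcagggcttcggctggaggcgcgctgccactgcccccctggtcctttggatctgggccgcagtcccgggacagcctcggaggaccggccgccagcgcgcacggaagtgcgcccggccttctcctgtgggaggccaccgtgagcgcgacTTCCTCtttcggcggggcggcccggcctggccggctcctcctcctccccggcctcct
Itgam, chr7:128062390-128062689, plus strand: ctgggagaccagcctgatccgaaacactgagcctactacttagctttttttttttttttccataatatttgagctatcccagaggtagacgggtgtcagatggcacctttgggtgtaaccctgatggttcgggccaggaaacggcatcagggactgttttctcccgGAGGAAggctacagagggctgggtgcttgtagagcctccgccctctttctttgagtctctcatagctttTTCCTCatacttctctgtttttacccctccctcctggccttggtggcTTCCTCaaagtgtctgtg

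Read on both strands, GAGGAA was in 5 of the 7 promoters (Itgam with 3 matches, Itgav with 2, and Itga5, Itgb1 and Itgb7 with 1 each), and in 28.3% of 32851 promoters of the same length. The GC box GGGCGG was in 6 of the 7, against 35.7% of all promoters. The AP-1 motif TGANTCA, which 7.81% of all promoters hold, and TATAAA, which 13.6% hold, were in 0 of the 7. The gene of PU.1, Spi1, was expressed at 129 to 143 FPKM over the 9 libraries. A match describes the letters of this window only.

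Between 100 µg/ml MNPs@SiO2(RITC)-treated and non-treated control cells, Itgb2 and Itgb7 were called higher, and the other 7 genes tested did not pass the threshold. Both calls depended on the settings. They held in 10 of 21 alternative settings for Itgb2 and in 8 of 20 for Itgb7. The test was limma on log2(FPKM + 1) over all 9 libraries, with p-values adjusted by Benjamini-Hochberg over 11161 genes and a threshold of 0.05. Thus 2 of the 9 genes tested were called, both higher, where 2.11% of all genes tested were called (0.708% higher and 1.41% lower). At an unadjusted p under 0.05 there were 6 of the 9 genes, 3 higher and 3 lower, against 19.4% of all genes. In 7 of the 10 genes the 3 treated libraries lay on one side of the 3 control libraries, 3 above and 4 below, and this was so for 6 of the 9 genes tested and for 23.8% of all genes tested. Leaving out high dose replicate 1 could not make these 7 genes overlap control, so it is no check of them. The genes that could change, Itgam, Itgb1 and Itgb5, still overlapped control without it. The median log2 fold change of the 9 genes was -0.18, and that of all genes tested was -0.0016. Without high dose replicate 1 these medians were -0.05 and 0.0006. In bulk samples, fewer cells of a type and less RNA per cell cannot be told apart.

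**Figure D3:**
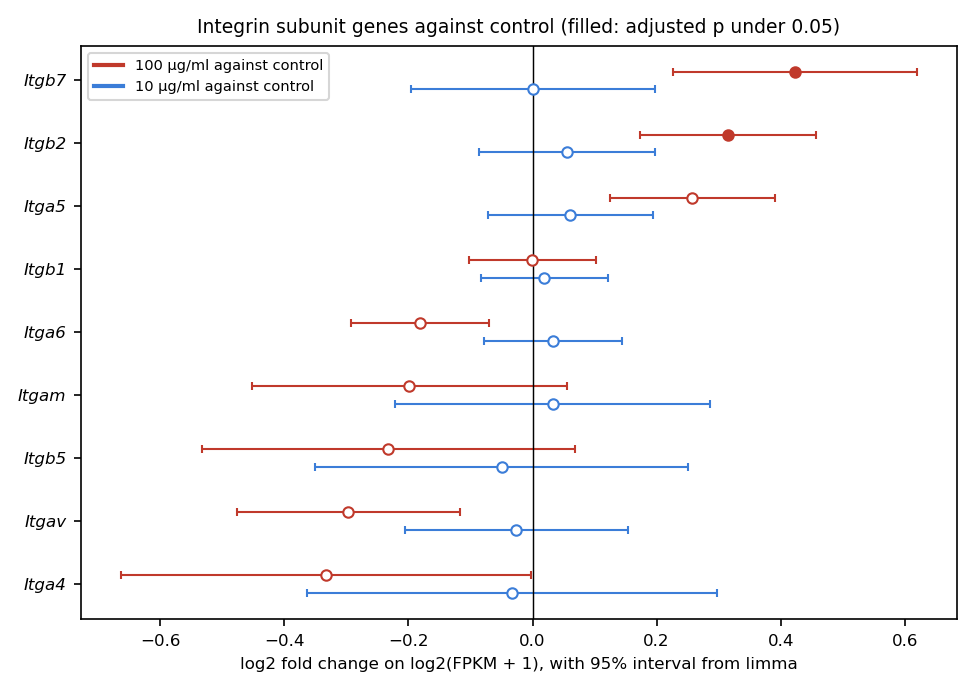
Log2 fold change on log2(FPKM + 1) with its 95% interval from limma (x axis) of the 9 integrin subunit genes tested (y axis), at 100 µg/ml (red) and 10 µg/ml (blue) against control, with filled points for an adjusted p under 0.05. Itgb7 (0.42) and Itgb2 (0.32) are filled at 100 µg/ml, and all intervals at 10 µg/ml include 0.

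Itgb2 (ENSMUSG00000000290, chromosome 10 of GRCm38 from 77530252 to 77565708, plus strand, protein-coding) encodes the beta subunit common to the leukocyte integrins. Its FPKM was 47.3, 50.9 and 47.4 in the control libraries, 52.8, 46.2 and 52.5 at 10 µg/ml and 61.2, 59.1 and 61.5 at 100 µg/ml. All 3 libraries at the high dose were above the 6 others. The mean was 24.9% higher at 100 µg/ml than in control cells, or 0.32 ± 0.06 (standard error) on the log2 scale (95% interval 0.17 to 0.46, limma adjusted p = 0.0402). The direction was the same in all 21 alternatives, with log2 fold changes of 0.30 to 0.35, but the threshold was passed in 10 of them. Without 1 library the adjusted p from limma was 0.154, 0.0993 and 0.115 for control replicates 1, 2 and 3, 0.0628 and 0.0663 for low dose replicates 1 and 3, and 0.0758 and 0.123 for high dose replicates 2 and 3, while it was 0.0358 without low dose replicate 2 and 0.0473 without high dose replicate 1.

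The alpha subunits that pair with Itgb2 did not rise with it. Itgam (ENSMUSG00000030786, chromosome 7 from 128062640 to 128128160, plus strand, protein-coding) had 57.9, 63.0 and 64.6 FPKM in control libraries, 63.4, 61.9 and 64.3 FPKM at 10 µg/ml and 43.6, 58.5 and 60.7 FPKM at 100 µg/ml. The groups overlapped, and the lowest value was that of high dose replicate 1. The log2 fold change at 100 µg/ml was -0.20 (95% interval -0.45 to 0.06, adjusted p = 0.379 from limma) and -0.05 without that library. With FPKM adjusted by loess for length and GC content, the change in Itgam was -0.17 (adjusted p = 0.257 from limma). Itgal (ENSMUSG00000030830, chromosome 7 from 127296260 to 127335137, plus strand, protein-coding) had 0.958, 1.30 and 1.09 FPKM in control libraries, 1.12, 0.793 and 0.700 FPKM at 10 µg/ml and 0.393, 0.499 and 0.559 FPKM at 100 µg/ml. At the high dose each library lay below all 6 others. The mean was 56.6% lower at 100 µg/ml and 21.8% lower at 10 µg/ml than in control cells, from an estimated 63.2 to 98.5 fragments per control library, 49.2 to 86.0 at 10 µg/ml and 32.6 to 42.0 at 100 µg/ml. A two-sided exact permutation test gave p = 0.1 at 100 µg/ml, the smallest that 3 libraries against 3 allow, and p = 0.3 at 10 µg/ml. When the filter was lowered to 0.5 FPKM, a choice made after seeing the data, Itgal had an adjusted p of 0.0853 from limma at 100 µg/ml. Itgal is one of the genes that the study itself singled out from these libraries, so its difference is not independent evidence.

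Itgb7 (ENSMUSG00000001281, chromosome 15 from 102215995 to 102231935, minus strand, protein-coding), the beta subunit of the gut-homing receptor of lymphocytes, was the least abundant of the genes tested. Its FPKM was 3.13, 3.08 and 3.63 in control libraries, 3.13, 3.29 and 3.41 at 10 µg/ml and 4.81, 4.41 and 4.99 at 100 µg/ml. The high dose libraries lay above the 6 others. Mean FPKM was 44.4% higher at 100 µg/ml than in control cells, and the log2 fold change on log2(FPKM + 1), which understates changes at such levels, was 0.42 ± 0.09 (standard error, 95% interval 0.23 to 0.62, limma adjusted p = 0.0456). It stayed above 0 in all 20 alternatives, between 0.39 and 0.53, and passed the threshold in 8 of them. Leaving out any 1 of the 9 libraries ended the call, with adjusted p from limma of 0.159, 0.164 and 0.0600 without control replicates 1, 2 and 3, 0.0702, 0.0776 and 0.0741 without low dose replicates 1, 2 and 3, and 0.0524, 0.0642 and 0.136 without high dose replicates 1, 2 and 3. The 5 lymphocyte markers were listed at 0 in every library.

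Itga4 (ENSMUSG00000027009, chromosome 2 from 79255426 to 79333123, plus strand, protein-coding), which pairs with Itgb7 or Itgb1, had 44.5, 45.1 and 45.7 FPKM in control libraries, 45.2, 45.8 and 41.3 FPKM at 10 µg/ml and 26.7, 42.6 and 39.5 FPKM at 100 µg/ml. Each high dose library was below all control libraries, with high dose replicate 1 far below the others. The log2 fold change of -0.33 (95% interval -0.66 to -0.0026, adjusted p = 0.256 from limma) became -0.13 without that library. That fit still carries a deviation by length, since the remaining high dose libraries deviated the other way. With FPKM adjusted by loess for length and GC content, the change in Itga4 was -0.27 (adjusted p = 0.0551 from limma). The other partner, Itgb1 (ENSMUSG00000025809, chromosome 8 from 128685654 to 128733200, plus strand, protein-coding), common to most matrix-binding integrins, stayed between 130.0 and 140.9 FPKM in control libraries, between 136.1 and 137.8 at 10 µg/ml and between 133.4 and 136.1 at 100 µg/ml. The high dose differed from control by -0.0003 on the log2 scale, with a 95% interval of -0.10 to 0.10 (adjusted p = 0.999 from limma).

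The fibronectin receptor subunit Itga5 (ENSMUSG00000000555, chromosome 15 from 103344289 to 103366763, minus strand, protein-coding) had 20.03, 21.1 and 22.3 FPKM in control libraries, 22.3, 21.9 and 22.0 FPKM at 10 µg/ml and 24.1, 26.6 and 25.7 FPKM at 100 µg/ml. The high dose libraries lay above the 6 others. Its log2 fold change was 0.26 (95% interval 0.12 to 0.39, limma adjusted p = 0.0621), and the call was gained without high dose replicate 1 (0.30, limma adjusted p = 0.0281). Itgav (ENSMUSG00000027087, chromosome 2 from 83724397 to 83806916, plus strand, protein-coding), an alpha subunit of receptors for vitronectin, osteopontin and milk fat globule protein, had 13.9, 16.1 and 16.2 FPKM in control libraries, 14.6, 15.5 and 15.2 FPKM at 10 µg/ml and 11.2, 13.1 and 12.8 FPKM at 100 µg/ml. Here the high dose libraries lay below the 6 others. The log2 fold change of Itgav was -0.30 (95% interval -0.48 to -0.12, adjusted p = 0.0919 from limma) and -0.23 without high dose replicate 1 (adjusted p = 0.107 from limma).

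The laminin receptor subunit Itga6 (ENSMUSG00000027111, chromosome 2 from 71745616 to 71858416, plus strand, protein-coding) had 22.6, 23.3 and 23.0 FPKM in control libraries, 23.3, 23.5 and 23.7 FPKM at 10 µg/ml and 19.3, 21.01 and 20.1 FPKM at 100 µg/ml. At the high dose all libraries were below the 6 others. The log2 fold change was -0.18 (95% interval -0.29 to -0.07, adjusted p = 0.0973 from limma). Itgb5 (ENSMUSG00000022817, chromosome 16 from 33829665 to 33949153, plus strand, protein-coding), the vitronectin receptor beta subunit, had 18.8, 19.2 and 19.98 FPKM in control libraries, 18.1, 17.8 and 20.1 FPKM at 10 µg/ml and 14.7, 13.98 and 21.05 FPKM at 100 µg/ml. High dose replicate 3 was the highest of the 9 libraries and replicates 1 and 2 the lowest, so the groups overlapped (log2 fold change -0.23, 95% interval -0.53 to 0.07, adjusted p = 0.384 from limma). A correction for GC content and transcript length by loess left 5 genes past the threshold, Itgb2, Itga5 and Itgb7 higher and Itga6 and Itgav lower, with adjusted p of 0.0157, 0.0122, 0.0308, 0.0383 and 0.0421 from limma, while 795 of all genes passed (415 higher and 380 lower, against 79 and 157 without the correction).

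At 10 µg/ml, 0 of the 9 genes tested differed from control, with 0 also at an unadjusted p under 0.05, where limma called 0% of all genes tested and 3.28% (366 genes) had an unadjusted p under 0.05. Itga5 had the log2 fold change farthest from 0, at 0.06 (95% interval -0.07 to 0.19), and the adjusted p from limma was 1 for all 9. In 1 of the 10 genes, Itga6, the libraries did not overlap with control, against 10.7% of all genes tested. The intervals still allow changes at this dose, the widest being -0.36 to 0.30 for Itga4.

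Between the doses, 0 of the 9 genes passed the adjusted threshold, where 0.851% of all genes tested did (0.215% higher and 0.636% lower), and 5 had an unadjusted p under 0.05, 3 higher and 2 lower at 100 µg/ml, against 14.3% of all genes. In 8 of the 10 genes the libraries at 100 µg/ml did not overlap those at 10 µg/ml, 3 above and 5 below, and 7 of the 9 genes tested were among them, against 19.4% of all genes tested. On the log2 scale Itgb7 differed by 0.42 (limma adjusted p = 0.0749), Itgb2 by 0.26 (limma adjusted p = 0.111) and Itga6 by -0.21 (limma adjusted p = 0.0977). The comparisons with control and between doses share the high dose libraries.

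Ratios within a library, which do not depend on the scaling between libraries, show the relation between subunits. Where the genes differ in length, the ratios still carry the deviation by transcript length of high dose replicate 1. Itgam per Itgb2 was 1.28 ± 0.0763 (SD, n = 3) in control cells and 1.26 ± 0.0735 at 10 µg/ml, and 0.713, 0.990 and 0.988 in the high dose libraries, so Itgb2 exceeded Itgam in these 3 libraries and in 0 of the 6 others. Itga5 per Itgav was 1.38 ± 0.0613 in control cells, 1.46 ± 0.0611 at 10 µg/ml and 2.07 ± 0.0725 at 100 µg/ml, with little spread and no overlap between the high dose and control. Itgb7 per Itgb1 went from 0.0243 ± 0.0014 to 0.0240 ± 0.0009 and 0.0351 ± 0.0025. Itga4 per Itgb7 was 13.8 ± 1.10, 13.5 ± 1.24 and 7.72 ± 2.06 in the same order. At 100 µg/ml Itga4 per Itgb7 was 5.55 in replicate 1 and 9.67 and 7.92 in replicates 2 and 3. Itgal per Itgam was 0.0180 ± 0.0023, 0.0138 ± 0.0035 and 0.0089 ± 0.0003. In contrast, Itgb5 per Itgav overlapped between all groups, at 1.26 ± 0.0803, 1.24 ± 0.0862 and 1.34 ± 0.293. These ratios are descriptions with no test.

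**Figure D4:**
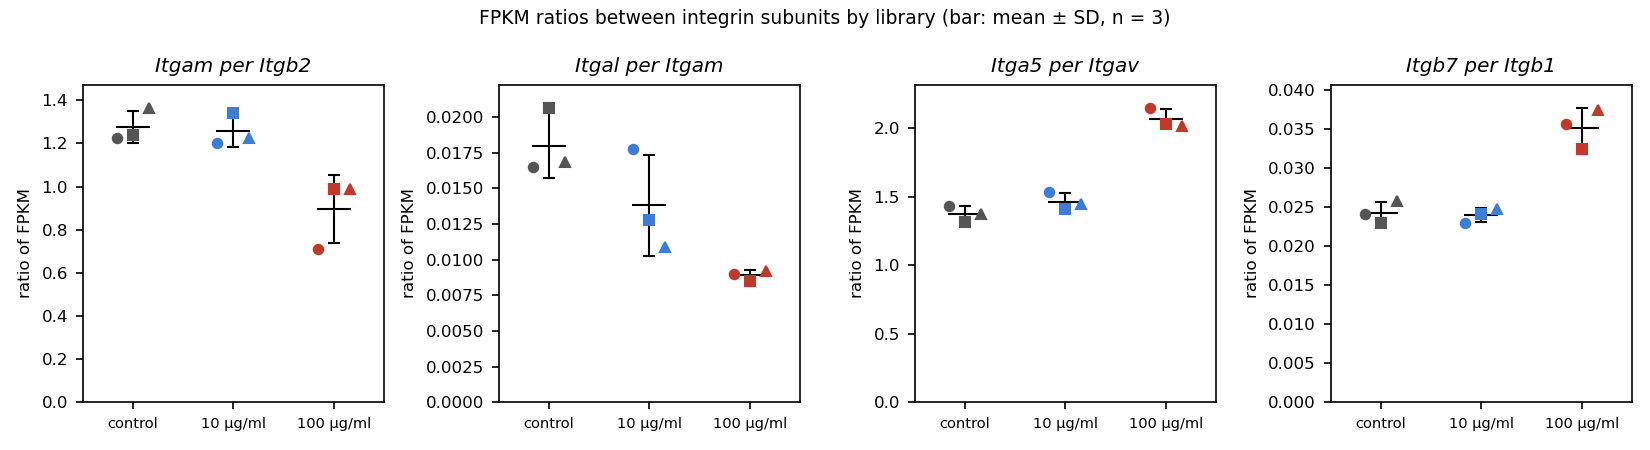
Ratio of the FPKM of a pair of integrin subunits within a library (y axis, from 0) in libraries of control, low dose and high dose cells (x axis), with bars for the mean ± SD of 3 libraries. At 100 µg/ml, Itgam per Itgb2 (0.713 to 0.990) and Itgal per Itgam lie below all control libraries, and Itga5 per Itgav and Itgb7 per Itgb1 above them.

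In the order of levels at 100 µg/ml, Itgb2 and Itgam had changed places against control cells, as had Itga5 and Itga6. Itgb2 (60.6 ± 1.31 FPKM, SD, n = 3) stood above Itgam (54.3 ± 9.27 FPKM) in each of the 3 libraries although their ranges overlapped. In high dose replicates 2 and 3 they were close, at 59.1 against 58.5 and 61.5 against 60.7 FPKM. The wide gap was in replicate 1, at 61.2 against 43.6 FPKM, the library that deviated by transcript length. Itga5 (25.5 ± 1.31 FPKM) stood above Itga6 (20.1 ± 0.866 FPKM), with ranges apart. Itga6 and Itgb5 (16.6 ± 3.90 FPKM) overlapped, with Itga6 higher in 2 of the 3 libraries.

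Genes that work with integrins were counted in lists chosen by their function. Of 36 integrin ligands 8 were tested, and 1 passed at 100 µg/ml against control, where 2.11% of all genes tested did. This was Icam1 (ENSMUSG00000037405), the ligand of Itgal and Itgam with Itgb2 on neighbouring cells. Icam1 had 21.7, 21.7 and 20.04 FPKM in control libraries, 19.6, 18.9 and 19.2 FPKM at 10 µg/ml and 15.1, 14.9 and 15.3 FPKM at 100 µg/ml. The 3 groups did not overlap with each other. It fell by 0.46 on the log2 scale against control (standard error 0.05, limma adjusted p = 0.00579) and by 0.33 against 10 µg/ml (limma adjusted p = 0.0293). The call against control held whichever of the 9 libraries was left out, with the adjusted p at most 0.0459, and was lost with only the 6 libraries compared (limma adjusted p = 0.0610). That against 10 µg/ml was lost with only the 6 libraries compared, with the replicate number as a block (limma adjusted p = 0.126 and 0.0867) and for 7 of the 9 libraries left out, with limma adjusted p of 0.0598 and 0.0634 without control replicates 1 and 2, 0.149, 0.104 and 0.120 without low dose replicates 1, 2 and 3, and 0.0843 and 0.106 without high dose replicates 2 and 3. The complement component C3, whose fragment iC3b binds Itgam with Itgb2, differed by -0.52 on the log2 scale (limma adjusted p = 0.0893), and Spp1, osteopontin, at 5542 ± 141 FPKM in control cells and 6307 ± 543 FPKM at 100 µg/ml (SD, n = 3), by 0.18 (limma adjusted p = 0.235). Without high dose replicate 1 these differences were -0.37 and 0.12. The other ligands with the highest levels, Mfge8 and Tgfb1, had log2 fold changes of 0.07 and 0.06, which were 0.01 and 0.0054 without that library. The median over the 8 ligands was 0.0077.

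Of 34 activators and adaptors of integrin adhesions 28 were tested and 1 passed at 100 µg/ml, which is near the 2.11% of all genes tested. It was Zyx, which encodes zyxin of focal adhesions. Zyx had 10.3, 9.47 and 9.56 FPKM in control libraries, 9.62, 10.98 and 9.97 FPKM at 10 µg/ml and 14.2, 12.8 and 13.8 FPKM at 100 µg/ml. All high dose libraries were above the 6 others, and Zyx rose by 0.44 on the log2 scale (standard error 0.07, limma adjusted p = 0.0192). The limma adjusted p missed the threshold without control replicates 1, 2 and 3 (0.0599, 0.0993 and 0.0676) and without high dose replicate 3 (0.0741), with only the 6 libraries compared (0.0783) and with the replicate number as a block (0.0651). The most abundant members, Flna (filamin A, which binds beta tails), Actn4 and Rap1b, had log2 fold changes of -0.26, 0.0035 and 0.13, with adjusted p of 0.216, 0.981 and 0.319 from limma. Without high dose replicate 1 they were -0.14, 0.03 and 0.06. The list had a median of -0.01 and 9 of 28 genes with an unadjusted p under 0.05, against 19.4% of all genes. Of 8 kinases 6 were tested and 0 passed, with 1 at an unadjusted p under 0.05 (Lyn, -0.14) and a median of -0.08. All 11 surface partners of integrins were tested and 0 passed, with 4 at an unadjusted p under 0.05 and a median of -0.04. Without high dose replicate 1 the medians were 0.0096 for the ligands, 0.02 for the adaptors, 0.0022 for the kinases and -0.14 for the surface partners. In the same 8 libraries, where 4.83% of all genes tested were called, the lists gave 4 calls among the surface partners, all lower (Cd81, Cd47, Slc3a2 and Lgals1), 3 among the adaptors, Actn1 and Zyx higher and Vasp lower, 1 among the ligands, Icam1 lower, and 0 among the kinases. After the loess correction, where 7.12% of all genes tested were called, there were 3 calls among the ligands (Icam1 and C3 lower, Spp1 higher), 5 among the adaptors (Zyx higher, and Apbb1ip, Parvg, Flna and Vasp lower), 3 among the surface partners (Lgals3 higher, Cd81 and Lgals1 lower) and 0 among the kinases. The log2 fold changes of Cd81, Cd47, Slc3a2 and Lgals1 were -0.23, -0.34, -0.26 and -0.41 without high dose replicate 1. After the loess correction they were -0.15, -0.27, -0.19 and -0.24, and Cd47 and Slc3a2 did not pass. Neither of the 2 other integrin subunits tested passed, and Itga7 had a log2 fold change of 0.15 and Itgax of 0.05.

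Across the 9 libraries, the genes whose log2(FPKM + 1) followed Itgb2 most closely were Trim59, Yrdc, Atg9b, Gmppb and Tmem189, with Pearson r of 0.972, 0.956, 0.953, 0.952 and 0.950. Those that followed Itgb7 were Atp10d, Ddx20, Ankrd10, Mb21d1 and Etf1, with r of 0.980, 0.976, 0.974, 0.973 and 0.972. All of these had higher mean FPKM at 100 µg/ml than in control cells. They are the highest values among 11161 genes over libraries that share the 3 groups, and are given as a description.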

How the data were processed

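Reads of poor quality were discarded, TopHat was used for alignment, and the authors deposited 1 FPKM value per gene and library from Cufflinks 2.1.1 (version from the submitters' processing notes), corrected for multi-mapped reads and fragment bias. Bias correction, and reads shared between genes, can shift these values. Whether counting used strand is not given in the sources used here, and genes overlapping the 10 integrin genes had means up to 0.041 FPKM. Coordinates are GRCm38.

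FPKM was transformed to log2(FPKM + 1), and the genes whose mean reached 1 FPKM entered limma 3.58.1 (R 4.3.3, 3 groups in one fit, eBayes with a trend, Benjamini-Hochberg adjustment, threshold 0.05). Python 3.11.15 with numpy 2.4.6, pandas 2.3.3, scipy 1.17.1 (exact test) and matplotlib 3.10.9 (figures) did the rest. The procedure was tested on simulated data with changes larger than those of the integrin genes called and no deviation by transcript length. That test cannot show how well changes of the size seen here are found. Depth was estimated from low values, 72.1 to 79.1% of which lay within 0.25 of a whole fragment (50% by chance), so depths and fragment numbers are approximate. Samples were grouped by their labels, and all columns were used. Deviations of libraries from different groups with the same replicate number had r of -0.088 to 0.152. Those with different numbers had r of -0.166 to 0.143. The highest r, 0.152, was between control replicate 1 and high dose replicate 1.

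The integrin genes, all lists and the alternatives were chosen with earlier results of these data known. The text names the integrin subunits, and from each list genes past the threshold and some of the most abundant, plus others chosen after their values were seen (C3, Lyn and the genes called only under another setting). For Itgb2 and Itgb7 it names the 5 genes with the highest r. Alternatives were pseudocounts of 0.1 and 0.01, no filter, filters at 5 and (added later) 0.5 FPKM, quantile and median-of-ratios scaling, a replicate block, no trend, only the 6 libraries compared, a loess correction for GC content and length (span 0.5), and each library left out in turn. Cuffdiff was not repeated.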

Additional observations from a re-analysis of the deposited data

How the results depend on the processing

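Of 591 alternative values for single integrin genes, 541 were counted as the same, 23 lost a call, 9 gained one, 15 changed sign and 3 moved by more than the spread between libraries. The same means that direction and side of the threshold were kept. For Itgal, which was not tested in the main fit, it means only a move smaller than the SD of the reference group. The 23 lost calls are those of Itgb2 (11 of 21 alternatives) and Itgb7 (12 of 20) at 100 µg/ml against control. No other gene or comparison had a call to lose. Most of the 541 are therefore values without a call that stayed without one, and they do not show that the calls are stable. The 3 that moved are Itgal with a pseudocount of 0.1 (log2 differences of -1.06 for the high dose and -0.34 for the low dose against control and -0.72 between doses, from -0.51, -0.18 and -0.33), a change that the smaller pseudocount makes by construction at such levels.

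The number of integrin genes called at 100 µg/ml against control, 2 as reported, was 0 without a filter (Itgb2 at an adjusted p of 0.0563 and Itgb7 at 0.0723 from limma), 0 with only the 6 libraries compared, 0 with the replicate block, 1 with the filter at 5 FPKM, which leaves out Itgb7, 1 without the trend and 5 after the loess correction. Leaving out single libraries gave 0 to 2, with 1 without low dose replicate 2, 2 without high dose replicate 1 (Itgb2 and Itga5) and 0 without each of the others. Between doses, 0 as reported, it was 1 without the trend and 4 after the loess correction. At 10 µg/ml it was 0 in all alternatives run. With the replicate number as a block, Itgb2 had an adjusted p of 0.0999 and Itgb7 of 0.0819 from limma, and 106 of all genes were called. The numbers share no source in the labels, 1 of 9 same-number pairs had r over 0.1, and 4 of 9 libraries were closest to their own number.

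Signs changed only for differences near 0. Itgb1 at 100 µg/ml was 0.02 after quantile normalization (0.01572), 0.01283 after the loess correction and -0.027 to 0.031 with single libraries left out. At 10 µg/ml, Itgb7 was -0.0015 after median-of-ratios rescaling, -0.0463 after the loess correction and -0.032 to 0.059 with single libraries left out, and under the last setting Itgam was -0.013 to 0.064, Itga4 -0.061 to 0.013, Itgav -0.093 to 0.010 and Itgb1 -0.0080 to 0.050. The number of all genes called at 100 µg/ml, 236 as reported, was 795 after the loess correction, 22 with only the 6 libraries compared, and 31 (without control replicate 2) to 539 (without high dose replicate 1) with single libraries left out. Between doses, 95 as reported, it was 318, 6, and 8 (without low dose replicate 1) to 191 (without high dose replicate 1), and 13 with the block. At 10 µg/ml, 0 as reported, it was 4 without a filter and at most 2 elsewhere. The causes were not tested. Depth limits Itgal, which rests on 32.6 to 98.5 estimated fragments per library.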

Other observations

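The FPKM of the 10 integrin genes summed to 359 to 385 in control libraries, 373 to 381 at 10 µg/ml and 341, 376 and 380 at 100 µg/ml. The 6 alpha subunits summed to 160 to 173 in control libraries, 167 to 170 at 10 µg/ml and 125, 162 and 159 at 100 µg/ml, with the lowest sum in high dose replicate 1. The 4 beta subunits summed to 199 to 212 in control libraries, 203 to 214 at 10 µg/ml and 216, 214 and 221 at 100 µg/ml, above all control libraries.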
